A study of Mus musculus with 17 samples.

Results

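Plce1 and Trpc6 encode signalling proteins of the podocyte, the epithelial cell that wraps the glomerular capillaries of the kidney filter. WT1 binding around them was read as all deposited WT1 peaks whose summit fell in one window per gene, chr19:38500000-38890000 (mm9, 390 kb) for Plce1 and chr9:8480000-8730000 (mm9, 250 kb) for Trpc6. The windows held 85 of the 107761 peaks in the 5 deposited lists, 78 around Plce1 and 7 around Trpc6. Peaks that overlapped by at least 1 bp across lists were joined into sites, which gave 29 sites around Plce1 and 4 around Trpc6 of 41770 sites genome-wide. Sites are numbered along each chromosome.

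The study followed WT1, a zinc-finger transcription factor, by chromatin immunoprecipitation and sequencing (ChIP-seq) after podocyte injury with adriamycin (doxorubicin, labelled ADR), with phosphate-buffered saline (PBS) as vehicle. All mice were labelled wildtype and aged 7 to 8 weeks. BALB/cJ mice supplied isolated glomeruli, in 4 libraries after PBS and 4 after ADR, for which the labels give no day, with glomeruli from 2 kidneys in each immunoprecipitation. Purified podocytes of mT/mG-Nphs2cre mice, in which a recombinase under the podocin gene promoter marks podocytes, gave 3 PBS libraries, 2 at day 9 and 2 at day 14 after ADR. For the PBS podocyte libraries the labels give no day. The remaining 2 libraries were glomerular inputs without antibody, and no podocyte input is labelled. One peak list was deposited for each group, so no value below has a replicate error and no group was tested against another. The identity of the purified cells could not be checked against marker genes, because peak lists hold no expression.

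Phospholipase C epsilon, the product of Plce1, cleaves a membrane phosphoinositide into inositol trisphosphate and diacylglycerol and takes part in signalling downstream of small GTPases. TRPC6 is a cation channel that lets calcium into the cell and can be opened by diacylglycerol. Recessive loss of PLCE1 causes childhood nephrotic syndrome with mesangial sclerosis, and dominant TRPC6 mutations, many of which increase calcium entry, cause focal segmental glomerulosclerosis. WT1 itself is a disease gene of the same cell.

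The promoter sequences of both genes are shown because they are the regulatory sequence in hand for them. They come from RefSeq on GRCm38.p6, a different build from the mm9 of the peaks, so positions in the promoters and positions of peaks cannot be set against each other. Each sequence is the 250 bases before the annotated start, on the plus strand, at chr19:38523947-38524196 for Plce1 and chr9:8543892-8544141 for Trpc6. Capitals mark matches to the short motif GTGGGNG on either strand, a short core that many WT1-type and EGR-type sites share.
Plce1: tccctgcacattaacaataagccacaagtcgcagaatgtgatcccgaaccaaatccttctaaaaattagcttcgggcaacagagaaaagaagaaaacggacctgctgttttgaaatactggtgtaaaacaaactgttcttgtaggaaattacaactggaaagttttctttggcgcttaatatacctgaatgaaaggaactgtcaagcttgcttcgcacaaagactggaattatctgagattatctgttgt
Trpc6: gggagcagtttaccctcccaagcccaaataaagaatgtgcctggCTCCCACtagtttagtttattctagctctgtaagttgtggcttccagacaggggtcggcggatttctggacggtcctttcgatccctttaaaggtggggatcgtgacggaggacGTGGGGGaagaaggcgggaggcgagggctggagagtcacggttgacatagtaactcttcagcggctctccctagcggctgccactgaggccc

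The Trpc6 sequence held 2 matches to GTGGGNG, one on the minus strand 206 bases and one on the plus strand 92 bases before the start, counted to the first letter of the match. The Plce1 sequence held none. Of 32851 mouse promoter sequences of the same length, 28.1% held at least one such match on either strand, so holding a match is common. How many held 2 or more, as Trpc6 did, was not counted. Neither promoter held the longer motifs GCGTGGGAG or GCGGGGGCG, which 0.405% and 2.57% of promoters held. The Plce1 sequence had 38.8% G and C and that of Trpc6 56.4%, against a median of 52.4% over all promoters. The Plce1 entry belongs to an internal start of the gene and not to its outermost one. In the same annotation the nearest protein-coding genes are Slc35g1 and Noc3l on either side of Plce1, and Cep126 and Pgr on either side of Trpc6. Which peaks lie in exons, introns or neighbouring genes is not given here, since that needs an annotation of mm9.

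Plce1 lay in a dense field of WT1 peaks in PBS glomeruli and all 3 podocyte groups, less so in ADR glomeruli, and Trpc6 did not. The Plce1 window held 16 peaks of PBS podocytes, 27 of day 9, 10 of day 14, 19 of PBS glomeruli and 6 of ADR glomeruli. Windows of equal length laid end to end across the genome held a median of 1, 2, 0, 2 and 1 peaks in these lists. As many peaks as around Plce1, or more, were found in 3.26% of such windows for PBS podocytes, 1.13% for day 9, 0.341% for day 14, 3.77% for PBS glomeruli and 15.5% for ADR glomeruli. The Trpc6 window held 1 peak of PBS podocytes, 4 of day 9, 1 of day 14, 1 of PBS glomeruli and none of ADR glomeruli. At least as many were held by 52.9%, 29.2%, 30.9% and 55.4% of windows of that length for the first 4 of these lists, and 54.7% of windows likewise had no ADR glomerular peak. The lists differ in length, with 23402, 31949, 6694, 29082 and 16634 peaks in the order given, and read totals were not used here.

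**Figure D1:**
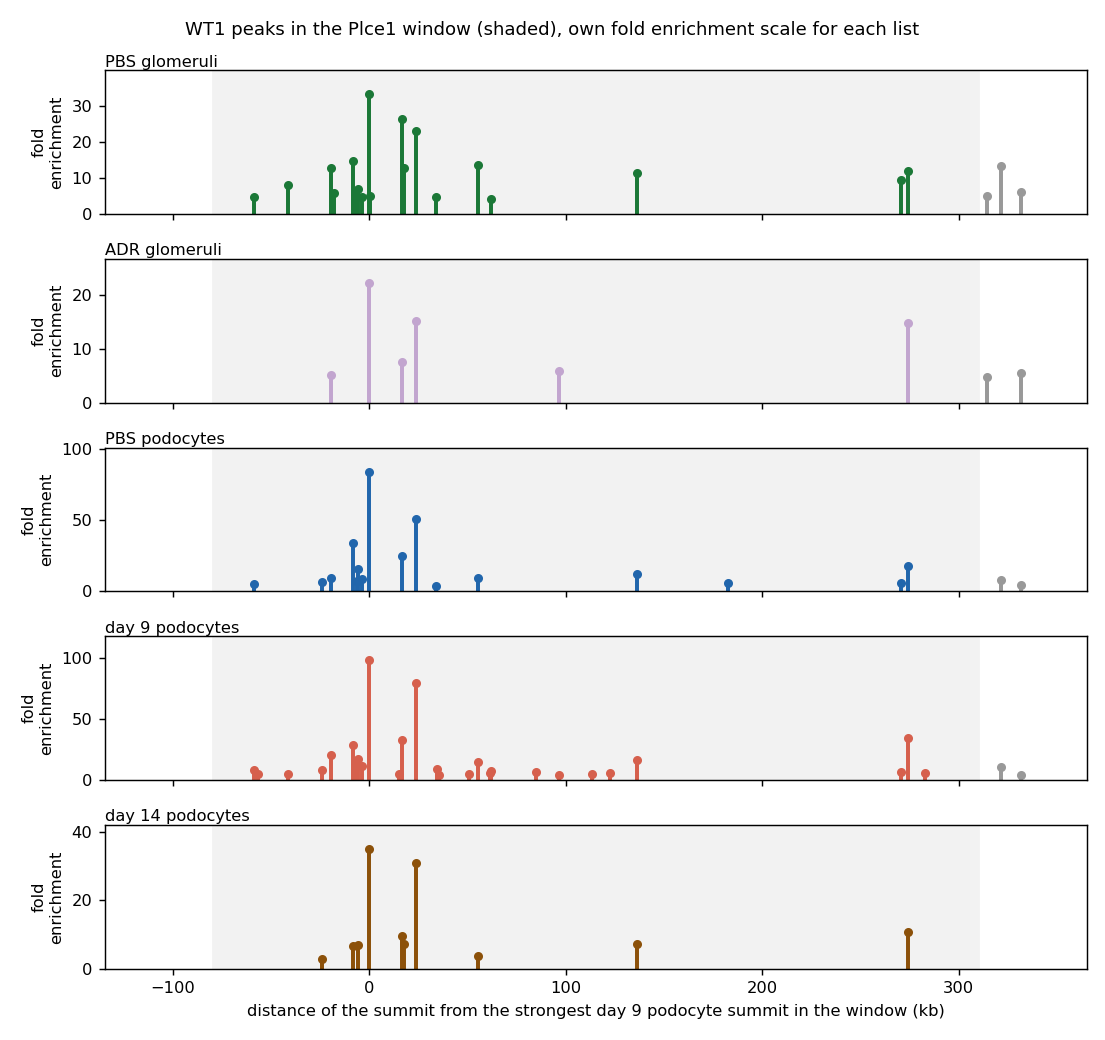
WT1 peaks around Plce1 in the 5 lists. Each stem is 1 peak, placed by the distance of its summit in kb from the strongest day 9 summit, with its fold enrichment as height on a separate linear axis for each list; grey stems are peaks outside the window, placed at their midpoint. The tallest stem, at 0, is site 11 in every list, and the day 9 panel has the most stems, 27.

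The Plce1 sites fell into a dense stretch and a remainder with wider spacing, which still held most of the day 9 peaks. Sites 4 to 14 spanned 48.2 kb of the 390 kb window and held 11 of the 19 peaks of PBS glomeruli, 4 of 6 of ADR glomeruli, 9 of 16 of PBS podocytes, 10 of 27 of day 9 and 7 of 10 of day 14. Within it, sites 7 to 11 lay in 9.15 kb. The widest gap without a site, 87.7 kb, separated sites 26 and 27. Summits were tightly placed. Taking the strongest peak of each list, 17 of 18 Plce1 sites with a peak in more than one list had their summits within 100 bp, with a median range of 42.5 bp. The exception was site 15, a chain of 3 peaks (4.61-fold in PBS glomeruli, 4.06-fold in PBS podocytes and 9.36-fold at day 9) with summits up to 376 bp apart. Counting every peak, 15 of the 18 sites stayed within 100 bp, since sites 11 and 13 also held weaker second peaks, with summits up to 562 and 890 bp apart.

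Peaks in all groups were carried by 4 Plce1 sites, numbers 11, 13, 14 and 28.
Site 11 was the strongest site of the window in each of the 5 lists. Its enrichment over the caller's background was 33.3-fold in PBS glomeruli (chr19:38579049-38579714), 22.2-fold in ADR glomeruli (chr19:38579145-38579539), 83.9-fold in PBS podocytes (chr19:38578901-38579937), 98.0-fold at day 9 (chr19:38578869-38579958) and 35.0-fold at day 14 (chr19:38579072-38579664). Fold enrichments are the authors' values and are ranked within a list only. By that rank, site 11 was number 6 of 23402 in PBS podocytes, 29 of 31949 in day 9 podocytes, 22 of 6694 in day 14 podocytes, 32 of 29082 for PBS glomeruli and 574 of 16634 for ADR glomeruli. It therefore stood in the top 0.329% of 4 lists and in the top 3.45% of the ADR glomerular list. The summits in the 5 lists lay within 37 bp of each other, and PBS glomeruli had a second, weak peak beside the first (4.92-fold).

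Site 14 was the next strongest in the 3 podocyte lists and ADR glomeruli. It reached 23.1-fold in PBS glomeruli (chr19:38602785-38603449), 15.1-fold with ADR, 50.5-fold in PBS podocytes, 79.2-fold on day 9 and 31.0-fold on day 14. All 5 summits lay within 19 bp, the narrowest range of the sites with peaks in several lists. Relative to site 11 of the same list, site 14 stood at 60.2% in PBS podocytes, 80.8% in day 9 podocytes, 88.6% in day 14 podocytes, 69.5% in the PBS glomerular list and 67.9% in the ADR glomerular list.

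Site 13 took a different shape in different lists. PBS podocytes (chr19:38595732-38597201) and day 9 podocytes had one peak of 1470 and 1482 bp there, with 25.1-fold and 32.7-fold enrichment. PBS glomeruli and day 14 podocytes instead had a pair of peaks in the same stretch, at 26.3-fold and 12.8-fold in PBS glomeruli and 9.58-fold and 7.36-fold at day 14. ADR glomeruli had a single peak, 7.56-fold, at the first of these positions and none at the second. Relative to site 11, the strongest peak of site 13 stood at 78.9% in PBS glomeruli, and at 27.4% to 34.0% in the other lists. Sites 18 and 25 also stood highest on this ratio in PBS glomeruli (40.5% and 34.0%), whereas sites 14 and 28 did not. By percentile within its list, site 13 was at 98.3 in PBS glomeruli and 95.5 in both PBS and day 9 podocytes. It was at 78.5 at day 14 and 53.7 in ADR glomeruli.

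Site 28, near the far end of the window, reached 12.0-fold in PBS glomeruli (chr19:38853255-38853700), 14.8-fold with ADR, 17.5-fold in PBS podocytes, 34.6-fold on day 9 and 10.9-fold on day 14. It was the third strongest Plce1 peak in ADR glomeruli, at 66.5% of site 11, against 20.9% to 36.1% in the other 4 lists. That ratio depends on site 11, whose percentile was lowest in the ADR glomerular list (96.5, against 99.7 or above elsewhere). Ranked by its own percentile, site 28 did not stand highest with ADR glomeruli (88.4). The day 9 list (96.0) and the PBS podocyte list (90.5) placed it higher, whereas the day 14 list (83.4) and the PBS glomerular list (76.7) placed it lower. Sites with a peak in all 5 lists made up 4 of 29 around Plce1 (13.8%) and none of 4 around Trpc6, against 11.2% genome-wide, which is a similar share for Plce1.

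**Figure D2:**
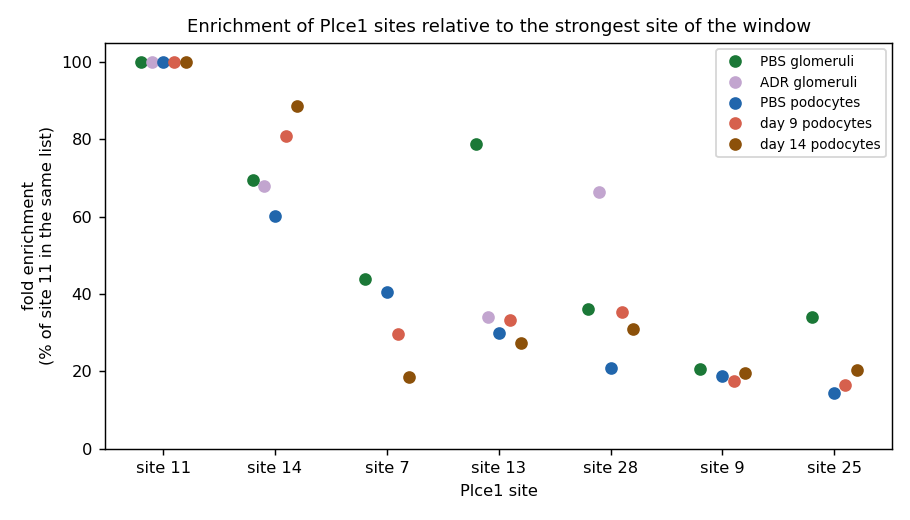
Fold enrichment at 7 Plce1 sites as a percentage of that at site 11 in the same list (linear axis from 0; 1 point per list, none where a list has no peak). Site 14 lies between 60.2% and 88.6% in all 5 lists, whereas site 13 is at 78.9% in PBS glomeruli and at most 34.0% elsewhere. The ratio depends on site 11 of each list. By percentile within its list, site 13 is at 98.3 in PBS glomeruli and 95.5 in PBS and day 9 podocytes.

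Glomeruli with and without ADR were set side by side to see how WT1 occupancy stood in the whole glomerulus after injury. Of the 6 ADR peaks around Plce1, 5 (83.3%, 95% Wilson interval 43.6 to 97.0) overlapped a PBS peak, against 82.6% of all ADR peaks. Of the 19 PBS peaks around Plce1, 5 (26.3%, 11.8 to 48.8) overlapped an ADR peak, against 46.5% of all PBS peaks, which the interval includes. With the PBS list trimmed by p to the length of the ADR list, 5 of 12 (41.7%, 19.3 to 68.0) did, against 59.7% of the trimmed list, and the 5 of 6 ADR peaks with a PBS peak then stood against 61.1%. Such intervals cover counting error only and treat peaks of one locus as independent, which neighbouring peaks may not be. The 5 PBS peaks with an ADR peak belonged to sites 5, 11, 13, 14 and 28 and had 12.0-fold to 33.3-fold enrichment. The 14 without one ranged from 4.14-fold to 14.7-fold, so the stronger peaks were mostly the ones present in both lists. In whole glomeruli, fewer podocytes and less WT1 bound per podocyte cannot be told apart.

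Several PBS glomerular sites of middle or high rank had no ADR peak. The strongest was site 7 (chr19:38570967-38571532, 14.7-fold, percentile 84.9 of its list), followed by site 18 (13.5-fold, percentile 81.6), site 25 (11.3-fold, 73.9), site 27 (9.35-fold, 64.2) and site 3 (8.01-fold, 54.7). Of all PBS glomerular peaks at least as enriched as that of site 7, 74.5% had an ADR peak. Site 7 is at the weak edge of that pool. The share among peaks of like enrichment was not counted. Site 7 was well occupied in podocytes, with 34.1-fold enrichment in PBS podocytes (percentile 98.0), 29.0-fold at day 9 and 6.53-fold at day 14. Sites 18 and 25 had peaks in all 3 podocyte lists as well, site 27 in PBS and day 9 podocytes, and site 3 at day 9. At or above percentile 50 of the PBS glomerular list, 5 of 11 Plce1 peaks had an ADR peak, against 60.1% of all peaks in that range. One ADR peak around Plce1, at site 22 (chr19:38675794-38675991, 5.82-fold, percentile 28.0), had no PBS counterpart in either tissue and overlapped a weak day 9 peak.

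Early injury in the purified cell was read from day 9 and PBS podocytes. Nearly all PBS sites around Plce1 were present at day 9, as were most peaks of the whole PBS list. Of 16 PBS peaks, 15 (93.8%, 71.7 to 98.9) overlapped a day 9 peak, against 87.0% of the list, which the interval includes. The exception was site 26 (chr19:38761825-38762217, 5.74-fold). In the other direction, 15 of 27 day 9 peaks (55.6%, 37.3 to 72.4) overlapped a PBS peak, against 64.0% of the list, so that 12 did not. With the day 9 list trimmed to the length of the PBS list, 17 Plce1 peaks were left beside the 16 of PBS, and 15 of them (88.2%) overlapped a PBS peak, against 76.1% of the trimmed list. The 15 of 16 PBS peaks with a day 9 peak then stood against 76.4%.

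The additional day 9 peaks around Plce1 were weak ones. Their enrichment ranged from 3.96-fold to 7.72-fold with a median of 5.28-fold, below the 6.82-fold median of the day 9 list, whereas the 15 at sites with a PBS podocyte peak had a median of 16.1-fold. The strongest of the 12 was at site 20 (chr19:38641133-38641634, 7.72-fold, percentile 57.2), which also had a weak PBS glomerular peak. Site 3 likewise had a PBS glomerular peak and site 22 an ADR glomerular peak. The other 9 were sites of day 9 alone (sites 2, 12, 16, 17, 19, 21, 23, 24 and 29). They were 31.0% of the 29 sites, and sites of day 9 alone made up 16.1% genome-wide. Counting all lists, 11 of 29 Plce1 sites (37.9%) were seen in a single list, against 34.5% genome-wide. Of the 12 additional peaks, 2, at sites 20 and 21, had a −log10 q of at least 10, against 69.7% of the day 9 list. Unmatched peaks were weaker across the list as well. A PBS podocyte peak overlapped 64.0% of all day 9 peaks and 80.9% of those at or above percentile 50.

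Sites 5 and 8 stood higher in the day 9 list than in the PBS list, and so did most Plce1 sites with a peak in both. The percentiles lay further apart at site 1 (35.0 in PBS podocytes, 61.2 at day 9) and site 15 (16.7 and 66.7). Sites 7, 9 and 11 stood lower at day 9. Site 5 (chr19:38559898-38560659 at day 9) had 20.1-fold enrichment at day 9 (percentile 89.0), 9.10-fold in PBS podocytes (70.8), 12.8-fold in PBS glomeruli (79.7) and 5.21-fold in ADR glomeruli (17.0), and no day 14 peak. Site 8 (chr19:38572683-38573121) had 13.0-fold at day 9 (78.4), 7.15-fold in PBS podocytes (57.8) and 5.15-fold in PBS glomeruli (19.8). Site 9 (chr19:38573586-38574233) was about level, with 17.0-fold at day 9 (85.5) and 15.9-fold in PBS podocytes (88.4), beside 6.89-fold in PBS glomeruli and 6.89-fold at day 14. Since the lists differ in length, these percentiles describe each list and do not measure a change.

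The comparisons with day 14 asked how the sites stood later after injury, with the same PBS podocyte list as for day 9. All 10 day 14 peaks around Plce1 lay at sites present in both other podocyte lists (100%, 72.2 to 100), against 96.1% of the day 14 list for PBS and 99.7% for day 9. Of the 16 PBS podocyte peaks, 9 (56.2%, 33.2 to 76.9) overlapped a day 14 peak, against 27.0% of the PBS podocyte list. Of the 27 day 9 peaks, 9 (33.3%, 18.6 to 52.2) did, against 20.5% of the day 9 list. With lists trimmed to the 6694 peaks of day 14, these shares were 6 of 6 (100%, 61.0 to 100), against 71.2%, and 6 of 7 (85.7%, 48.7 to 97.4), against 77.4%, and both intervals included the share of the trimmed list. In the other direction, 7 of 10 day 14 peaks (70.0%) then overlapped a PBS peak and 7 of 10 a day 9 peak, against 72.7% and 79.0%. In the lists as deposited, Plce1 peaks had a median percentile of 70.9 in PBS podocytes and 61.2 at day 9 by fold enrichment. By q, 12 of 16 and 16 of 27 had a −log10 q of at least 10, against 69.5% and 69.7% of the lists. Whether rank bears on these shares was not tested. At or above percentile 50 of each list, 9 of 12 PBS peaks and 9 of 15 day 9 peaks had a day 14 peak, against 50.7% and 40.6% of all peaks in that range.

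The Plce1 sites with a day 14 peak were sites 4, 7, 9, 11, 13, 14, 18, 25 and 28. In PBS podocytes they had 6.39-fold to 83.9-fold enrichment, and the 7 sites without a day 14 peak had 4.06-fold to 9.10-fold. The ranges overlapped through site 4 alone, the weakest of the 9 by fold enrichment. By −log10 p in PBS podocytes they did not overlap. The lowest of the 9 was then site 18, at 25.7, and the highest of the 7 was site 5, at 23.6. At day 9 the 9 sites had 8.57-fold to 98.0-fold and the 18 without a day 14 peak 3.96-fold to 20.1-fold, with site 5 the strongest of the latter. At day 14, sites 11 and 14 stood far above the rest (35.0-fold and 31.0-fold, against 10.9-fold for site 28). The remaining sites lay between 2.83-fold at site 4 and 9.58-fold at site 13. Site 18 was close to the lower edge of the list, at 3.84-fold and percentile 9.67.

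Site 4 was singled out after its values were seen. It had a peak in all 3 podocyte lists and in neither glomerular list, a combination found in 149 sites genome-wide (0.357%). Its peak in PBS podocytes (chr19:38555346-38555993, 648 bp) had a moderate enrichment of 6.39-fold, at percentile 50.6, beside a −log10 q of 33.7, at percentile 71.2. At day 9 (chr19:38555351-38555971) these were 8.57-fold (percentile 62.6) and 57.3 (percentile 80.1). At day 14 the peak was among the weakest of the list, at 2.83-fold and percentile 1.05. The 3 summits lay within 30 bp.

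**Figure D3:**
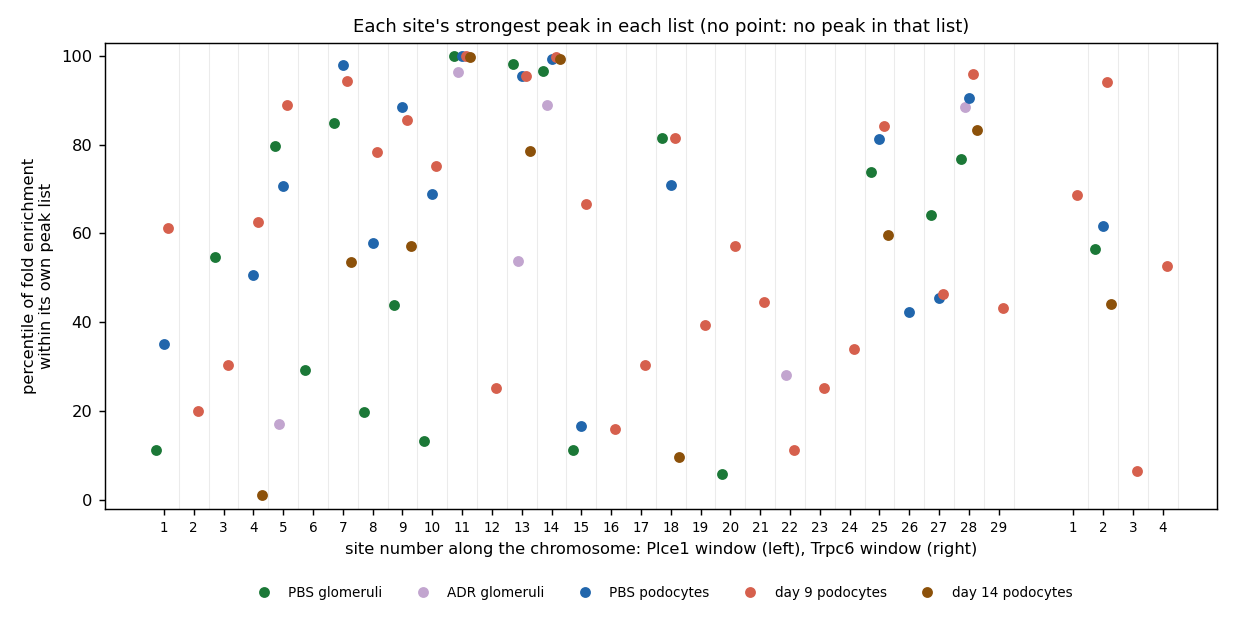
Percentile of the strongest peak of each site by fold enrichment within its own list (vertical axis, 0 to 100), for 29 Plce1 sites and 4 Trpc6 sites in order along the chromosome (horizontal axis), 1 colour per list. Sites 11 and 14 are at percentile 88.9 or above in every list, and the sites seen at day 9 alone lie at percentile 44.6 or below around Plce1.

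Purified podocytes and whole glomeruli shared most Plce1 sites under PBS, as they shared most peaks of both lists. Strain and tissue preparation differ together between these groups, and only glomeruli have labelled inputs. A glomerular peak overlapped 14 of the 16 podocyte peaks (87.5%, 64.0 to 96.5), against 80.7% of the podocyte list. A podocyte peak overlapped 16 of the 19 glomerular peaks (84.2%, 62.4 to 94.5), against 66.4% of the glomerular list. With the glomerular list trimmed to the length of the podocyte list, these shares were 12 of 16 (75.0%, 50.5 to 89.8), against 72.9%, and 13 of 15 (86.7%, 62.1 to 96.3), against 73.8%. Each interval, trimmed or not, includes the share of its list. At or above percentile 50 of the list, 11 of 12 podocyte and 10 of 11 glomerular Plce1 peaks had a match, against 91.4% and 86.2% of all peaks in that range. Podocytes alone had a PBS peak at sites 4 and 26, and glomeruli alone at sites 3, 6 and 20. Site 6 (5.76-fold) had no peak in any other list.

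Around Trpc6, one site recurred and the rest were seen at day 9 alone. Site 2 had a peak in 4 lists, at 8.22-fold in PBS glomeruli (chr9:8515997-8516222, percentile 56.4), 7.62-fold in PBS podocytes (chr9:8515945-8516267, percentile 61.6), 28.5-fold at day 9 (chr9:8515801-8516407, percentile 94.1) and 5.95-fold at day 14 (chr9:8516004-8516347, percentile 44.2). It was a middle-ranked site in 3 lists and a high-ranked one at day 9, with 4 summits within 42 bp. It had no peak in ADR glomeruli, and 62.0% of PBS glomerular peaks at least as enriched as this one did. That pool holds mostly stronger peaks, so its share is not that of peaks of like enrichment. Presence in every list but ADR glomeruli was shared by 4 Plce1 sites (7, 9, 18 and 25) and by 3.44% of sites genome-wide.

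The sites of day 9 alone around Trpc6 were site 1 (chr9:8515274-8515666, 9.91-fold, percentile 68.7), site 3 (chr9:8543823-8544129, 3.51-fold, percentile 6.40) and site 4 (chr9:8560025-8560388, 7.13-fold, percentile 52.6). Site 1 ended 134 bp before site 2. Sites 3 and 4 lay farther apart and near or below the middle of the list. Of the 4 day 9 peaks, 1 overlapped a PBS podocyte peak and 1 a day 14 peak. The single PBS podocyte peak overlapped a peak in PBS glomeruli, at day 9 and at day 14. With 1 to 4 peaks per list, no share is informative here.

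The strongest peaks near Trpc6 lay just outside its window. Within 50 kb past its upper end, each of the 5 lists had 2 peaks. The nearer one had 6.62-fold enrichment in PBS glomeruli (chr9:8733415-8733688), 4.04-fold with ADR, 6.68-fold in PBS podocytes, 41.1-fold on day 9 and 9.94-fold on day 14. The farther one had 17.7-fold in PBS glomeruli (chr9:8740071-8740591), 14.3-fold with ADR, 18.0-fold in PBS podocytes, 72.7-fold on day 9 (percentile 99.6) and 13.0-fold at day 14. Both exceeded site 2 at day 9 and day 14, and the farther one exceeded it in every list that had site 2. Just outside the Plce1 window the peaks were weaker than its leading sites, with at most 13.3-fold in PBS glomeruli, 5.46-fold with ADR, 8.33-fold in PBS podocytes and 10.8-fold on day 9, and there were none at day 14.

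**Figure D4:**
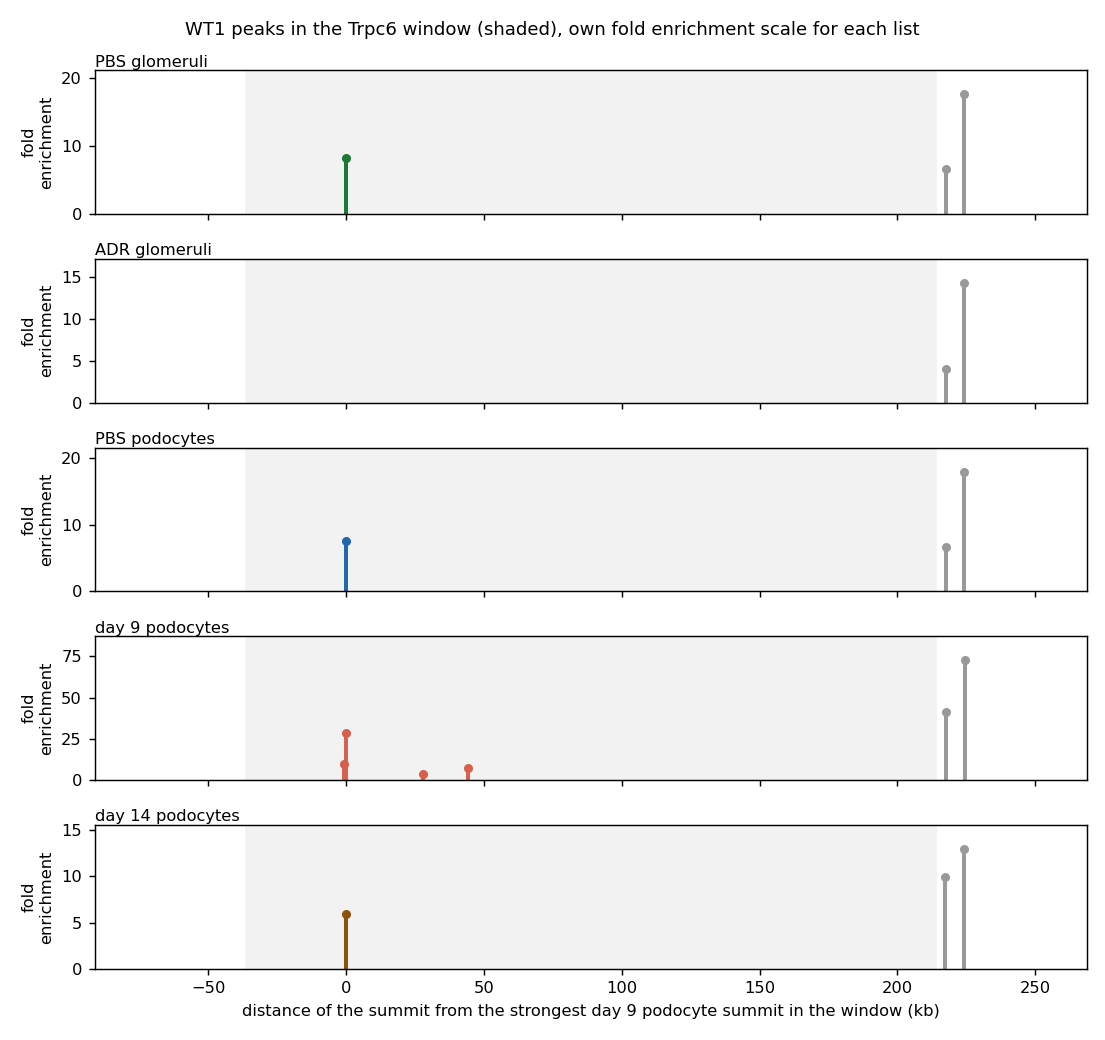
WT1 peaks around Trpc6 in the 5 lists, drawn as for Plce1, with distance in kb from the strongest day 9 summit in the window and fold enrichment on a separate linear axis for each list. Coloured stems are the peaks in the window, 4 at day 9 and at most 1 in the other lists; the 2 grey stems beyond the window are present in all 5 lists.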

How the data were processed

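WT1 ChIP-seq peaks of 5 immunoprecipitation groups were used as deposited. Per the submitters' processing notes, the tools were Bowtie 0.12.7 and MACS2 and the build was mm9. Not given in the sources used here are the treatment of replicates, control, duplicates and cutoff. The fold enrichment of each peak is a ratio deposited by the authors. Peak −log10 p and −log10 q values were also deposited by the authors. The integer score deposited by the authors entered no result. Coordinates are 1-based in mm9.

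Peaks were taken by summit, and a percentile is the share of peaks in the same list with lower fold enrichment. Sharing meant overlap of at least 1 bp, with 95% Wilson intervals. Sites were numbered unions of overlapping peaks. Described sites were those in all 5 lists, the strongest in each list, those with a PBS or an ADR peak alone in a tissue at or above percentile 50, and the next 3. The windows, lists and rules were chosen with earlier results of these data known; motifs, the dense stretch and the shares at or above percentile 50 were chosen after seeing the data. A pathway gene list and a ranking of similar genes could not be run without an mm9 annotation. Alternatives were a −log10 q of at least 10, other overlap rules, merging, wider windows, trimming and ranking by p. Overlap and merging were tested on simulated data. Versions were pandas 2.3.3, numpy 2.4.6, scipy 1.17.1, matplotlib 3.10.9 and Python 3.11.15.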

Additional observations from a re-analysis of the deposited data

Results flagged for a closer look

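The number of Plce1 peaks after ADR relative to PBS was 0.316 in glomeruli and 1.69 in podocytes at day 9, in opposite directions. Whole lists differed in the same directions, by ratios of 0.572 and 1.37. With both lists trimmed to equal length, the Plce1 ratios were 0.5 (6 and 12 peaks) and 1.06 (17 and 16 peaks), and at a −log10 q of at least 10 they were 0.25 and 1.33, so most of the day 9 excess was among the peaks of lower significance. Each value rests on one list per group, the labels give no day for ADR glomeruli, and the difference between the tissues was not tested.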

How the results depend on the processing

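No paired analysis was possible because there is a single list per group, so no library could be left out. All 19 shares stayed within their intervals when peaks had to overlap by 50% of the shorter and when summits had to lie within 200 bp. Many of these intervals are wide, such as 43.6 to 97.0 for 6 Plce1 peaks and 0.0 to 79.3 for 1 Trpc6 peak. Staying within them therefore says little about the overlap rule. All 10 peak counts and 4 site counts stayed within 1.5 times when peaks within 200 bp were merged, and ranking by p gave the same strongest peak in all 9 cases. A −log10 q of at least 10 left 12 Plce1 peaks in PBS glomeruli, 3 in ADR glomeruli and 16 at day 9, 18 Plce1 sites and 0 Trpc6 peaks at day 14. It moved the Plce1 shares to 100% of ADR glomerular peaks with a PBS peak, 75.0% of day 9 peaks with a PBS podocyte peak and 100% of PBS podocyte peaks with a day 9 peak. For Trpc6, 0% of PBS podocyte and 0% of day 9 peaks then had a day 14 peak. Trimming both lists to equal length gave 88.2% of day 9 Plce1 peaks with a PBS podocyte peak, 70.0% of day 14 Plce1 peaks with a PBS and 70.0% with a day 9 peak, and 100% of PBS podocyte and 85.7% of day 9 Plce1 peaks with a day 14 peak. It gave ratios of Plce1 peak numbers after ADR to PBS of 0.5 in glomeruli and 1.06 at day 9, an alternative chosen after seeing the data. For Trpc6 it gave 0% of day 14 peaks with a PBS podocyte peak and 100% of day 9 peaks with a day 14 peak. Windows wider by 50 kb on each side held 3 Trpc6 peaks of PBS podocytes, 3 of day 14, 3 of PBS glomeruli and 2 of ADR glomeruli. The stricter q and trimming keep fewer peaks by construction.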
